A study of Mus musculus with 3 samples.

Results

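TEC loci are unspliced entries of the mouse gene annotation that annotators hold as awaiting experimental proof. They were examined in RNA from the chromatin fraction of mouse macrophages. The loci were selected on the measured values: every gene with transcripts of type TEC alone and with at least 1 TPM (a transcript level corrected for length and scaled to a fixed total per library) in each of 3 libraries. This rule held for 707 of 3213 TEC loci, or 22.0%, while 18.3% of all 55536 genes passed it (10143 genes). The levels below are therefore a description of loci picked for their level, and no test was made on them.

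The libraries were total RNA-seq after ribosomal RNA depletion of primary bone-marrow-derived macrophages (BMDM), strain C57BL/6J, treated for 60 minutes with 100 ng/ml Lipid A, the membrane anchor of lipopolysaccharide from bacteria and a ligand of Toll-like receptor 4. All 3 belonged to this 1 group, no untreated sample was analysed here, and no treatment comparison was possible. The labels call them biological replicates and give all of them the same donor entry. Replicate 1 began with 1 µg of RNA, replicate 2 with 250 ng and replicate 3 with 500 ng. They do not say that the cells came from separate animals or cultures, so the spread between libraries may be technical. Genes held 13318395, 15352661 and 15812581 expected counts. All 12 macrophage markers looked up were detected, with a median of 71.7 TPM, and 2 of 23 markers of T, B, neutrophil, erythroid, endothelial and fibroblast cells were. The summed level of the 23 was 42.4 to 56.2 TPM per library, beside 1797 to 2769 TPM for the macrophage markers, and their part in the results below was not tested.

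Annotators create a TEC entry where cDNA or EST sequences with a sign of a poly(A) tail align to the genome without splicing, so that it is not settled whether they are genes of their own, parts of longer transcripts or copies primed inside an A-rich stretch. Chromatin-bound RNA is rich in transcripts still attached to RNA polymerase II, and introns not yet removed are sequenced along with exons. A locus inside an intron can therefore collect reads from the precursor RNA of the gene around it.

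The 3′ ends of 6 loci are shown because a poly(A) signal is the sequence feature that the annotation's evidence would lead one to look for. Gm38062 (in Dock10), Gm36638 (in Pik3r1), Gm43197 and 5330406M23Rik (both far from coding genes) were picked among high loci because they hold AATAAA or ATTAAA. The 2 highest loci, Gm38357 (in Noct) and A630081D01Rik (in Dock10), are shown as ends without either word, as most detected loci are. Each is the last 60 bases of the annotated transcript, 5′ to 3′, on the locus's own strand in mm10. Capitals mark AATAAA or ATTAAA where it lies in the last 50 bases, and only the locus's own strand was searched. Other forms of the signal were not searched for, and whether a word found acts as a signal was not tested. Gm38357 ends at chr3:51234321-51234380 on the plus strand. A630081D01Rik (chr1:80747222-80747281), Gm38062 (chr1:80728809-80728868), Gm36638 (chr13:101749720-101749779), Gm43197 (chr6:3336772-3336831) and 5330406M23Rik (chr6:31108827-31108886) lie on the minus strand. Another detected locus in Pik3r1 is also named Gm36638, and the coordinates given are those of the end shown.
Gm38357: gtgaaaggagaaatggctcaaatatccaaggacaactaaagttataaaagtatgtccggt
A630081D01Rik: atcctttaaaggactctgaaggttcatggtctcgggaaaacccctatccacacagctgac
Gm38062: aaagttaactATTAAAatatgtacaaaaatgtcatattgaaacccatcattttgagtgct
Gm36638: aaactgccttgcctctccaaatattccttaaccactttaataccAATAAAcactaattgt
Gm43197: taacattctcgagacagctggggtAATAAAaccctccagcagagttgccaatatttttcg
5330406M23Rik: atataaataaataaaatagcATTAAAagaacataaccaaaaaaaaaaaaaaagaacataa

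Of the 707 detected loci, 169 (23.9%, Wilson 95% interval 20.9 to 27.2%) held 1 of these words in the last 50 bases. The share was 30.3% of the 2506 TEC loci that were not detected, 68.7% of coding genes, 41.0% of lincRNA genes and 45.0% of antisense genes, each read at the end of the longest transcript. The share was thus lower at TEC ends than at coding ends, and lower in detected than in undetected loci; these differences were not tested. Among detected loci the median level was 4.77 TPM with a word and 5.54 TPM without one. At least 12 A among the last 20 bases stood at 10.2% of detected TEC ends, 8.62% of undetected TEC ends and 8.67% of coding ends. The end of 5330406M23Rik above is an example of such an A-rich end.

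A second set of sequences is shown because 4 detected loci overlapped a microRNA gene. At least 2 of them began right where a mature microRNA ends. For another, Gm37296, no mature sequence was at hand. These loci were singled out after their values and positions were seen. MicroRNAs are cut from a hairpin in the nucleus by the Drosha enzyme, which leaves the rest of the primary transcript on either side. The mature arms of Mir34a and Mir125b-2 nearer the 3′ end are given from RefSeq (GRCm38.p6) with the seed, bases 2 to 8, in capitals, each followed by the first 30 bases of the TEC locus on the same strand.
mmu-miR-34a-3p: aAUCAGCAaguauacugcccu
Gm37795: gaagtgctgcacattgttgggccgagaagg
mmu-miR-125b-2-3p: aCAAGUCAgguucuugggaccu
C130023A14Rik: aggcggagggataccagcagcttgggacct

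C130023A14Rik (chr16:77646340-77649426, plus strand) started at base 1 after the end of mmu-miR-125b-2-3p, and Gm37795 (chr4:150068539-150070997, plus strand) at base 2 after the end of mmu-miR-34a-3p. Gm37795 stood at 8.21, 15.8 and 14.1 TPM in replicates 1, 2 and 3, and C130023A14Rik at 5.27, 8.20 and 6.69 TPM. Both were lowest in replicate 1. Another locus, Gm37296 (8.57, 15.5 and 11.9 TPM; chr15:68338295-68341216, minus strand), shared its first 9 bases with the end of the Mir30d gene on the same strand. RefSeq gave no mature sequence for Mir30d here, so the start of Gm37296 could not be placed relative to one. The fourth, Gm44144 (3.22, 3.71 and 3.94 TPM; chr2:38852978-38854937, minus strand), lay across the whole of Mir181b-2 on the opposite strand. The 4 microRNA genes themselves were listed at 0 TPM in every library, and the libraries had a labelled size range of 250 to 400, so mature microRNAs were not measured. In all, 0.566% of detected TEC loci and 0.120% of undetected ones (3 of 2506) overlapped a microRNA gene. RefSeq gave mature sequences for 1058 of 1738 microRNA genes, and the rest could not be searched. Within 20 bases after one of these sequences, 1 other TEC locus began. It was Gm29008, at base 15 after mmu-miR-141-5p, and it was listed at 0 TPM.

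Detection of TEC loci was below that of coding genes, at 35.7%, and above that of the 4 noncoding types compared. It was 13.8% for antisense genes, 14.7% for processed transcripts, 4.53% for processed pseudogenes and 3.52% for lincRNA genes. Single libraries had 732, 855 and 796 TEC loci at 1 TPM or above in replicates 1, 2 and 3, and 1435 TEC loci had no count in any library. The threshold cut through a continuous range of levels. Just inside it, Gm38228 in Nck2 measured 1.00, 3.61 and 1.28 TPM and Gm44830 in Ube3a 1.00, 1.95 and 1.19 TPM. Just outside it, Gm45206 in Sema4b measured 0.99, 2.11 and 1.94 TPM and Gm38302 in Rabgap1l 0.99, 1.38 and 2.20 TPM. In all 4 the lowest value was that of replicate 1.

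The median level of the 707 loci was 2.64 ± 0.25 on the log2(TPM + 1) scale (mean ± SD of the 3 library medians, n = 3). It was 3.19 ± 0.20 for detected coding genes, 2.51 ± 0.18 for lincRNA genes and 2.46 ± 0.17 for antisense genes, all picked by the same threshold. The median of the loci's mean TPM was 5.25, with quartiles of 2.79 and 11.7 and a range of 1.10 to 370 TPM. Most loci were low: 96 had a mean of 1 to 2 TPM, 245 of 2 to 5, 157 of 5 to 10, 163 of 10 to 50, and 46 of 50 or more. The median locus had 158 expected counts per library, 100 loci had under 50 and 10 had under 10. Together the 707 loci took 2.75% ± 0.10 of the gene counts (n = 3), of which the 10 highest loci by TPM held 20.7%. TPM in these libraries is a share of a total in which genes with an effective length of at least 200 bases made up 33.0% ± 4.3 (n = 3), so shorter RNAs held most of that total and the TEC loci divide the rest with all other longer genes.

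The highest locus was Gm38357 (ENSMUSG00000103313.1, chr3:51231917-51234380), 2464 bases in an intron of Noct, the gene for nocturnin, a phosphatase of NADP(H) linked to the circadian clock. It measured 326, 404 and 381 TPM in replicates 1, 2 and 3, and Noct itself 292, 313 and 365 TPM. The locus stood a little above its gene in each library.

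A630081D01Rik and Gm38062 lay in introns of Dock10, a gene of the macrophage lineage list described below. A630081D01Rik (chr1:80747222-80749054) measured 266, 351 and 267 TPM, and Gm38062 (chr1:80728809-80730664) 193, 319 and 221 TPM. Dock10 varied less, at 202, 224 and 210 TPM. Replicate 2 was the highest library for both loci. Gm42793 (chr5:104435121-104436372) overlapped an exon of Spp1, the gene for osteopontin, and measured 219, 228 and 192 TPM beside a mean of 228 TPM for Spp1. Gm37084 (chr1:131086252-131092149), in an intron of Mapkapk2, a kinase activated by p38 that promotes translation of cytokine mRNAs, measured 172, 161 and 220 TPM. Its mean of 184 ± 31 TPM (SD, n = 3) was above the 93.5 TPM of Mapkapk2. These relations depended on the quantification. In a second one, in the manner of kallisto, Gm37084 was below Mapkapk2, at 169 beside 285 TPM. A630081D01Rik and Gm38062 were below Dock10 there, at 288 and 234 beside 316 TPM.

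Gm20236 and Gm37094 came next and are described below, since they are copies of each other. Gm37390 in Itpkb, a kinase of inositol trisphosphate, measured 113, 165 and 179 TPM. AC167363.2 (chr17:29093416-29094461), opposite an exon of the cell cycle inhibitor gene Cdkn1a, measured 98.2, 163 and 147 TPM. Gm47603 (chr13:63253024-63255564), opposite an intron of 2010111I01Rik, a predicted aminopeptidase, measured 94.4, 185 and 116 TPM. In all 3 of these, replicate 1 was the lowest library and the gene around the locus was detected. The plot of the 20 highest loci shows replicate 1 lowest in most of them, with Gm49125 in Ddhd1 (104, 76.2 and 90.4 TPM) as one where it was highest.

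**Figure D1:**
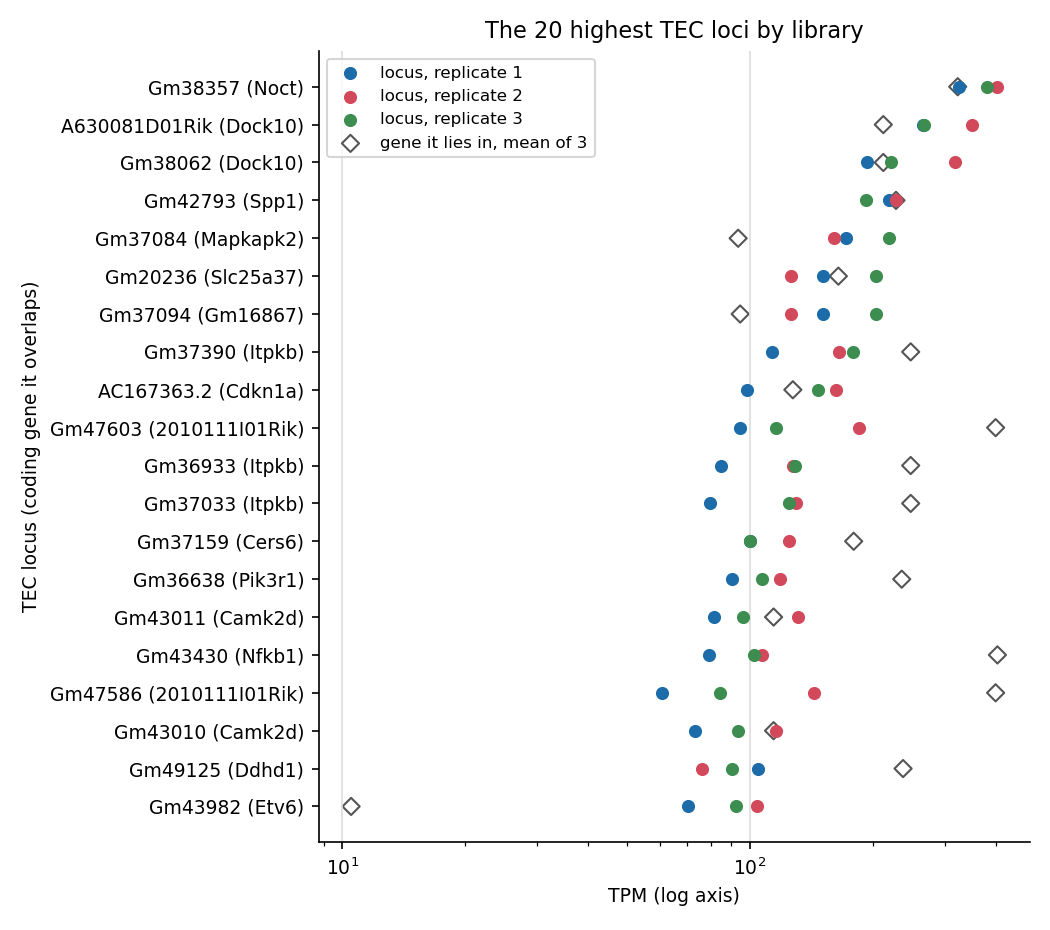
TPM (log axis) of the 20 TEC loci with the highest mean, 1 row per locus with the coding gene it overlaps in brackets. Filled points are the 3 libraries and open diamonds the mean of the coding gene: Gm38357 is at 326 to 404 TPM beside Noct at 323, and Gm43982 at 70.2 to 104 TPM is above Etv6 at 10.5 in the gene table.

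Most detected loci lay inside coding genes. Of the 707, 497 (70.3%) lay wholly in introns of a coding gene on its own strand and 31 (4.38%) overlapped an exon of one on the same strand. On the opposite strand, 59 (8.35%) lay in introns and 46 (6.51%) overlapped an exon. Another 37 were within 10 kb of a coding gene, 19 of them after its end on the same strand, and 37 (5.23%) were farther away. In all, 74.7% of detected loci (Wilson 95% interval 71.3 to 77.7%) lay in a coding gene on the same strand, beside 40.3% of the 2506 loci not detected. The farther class held 30.6% of the loci not detected. The intervals treat loci as independent, while loci of 1 gene share it.

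**Figure D2:**
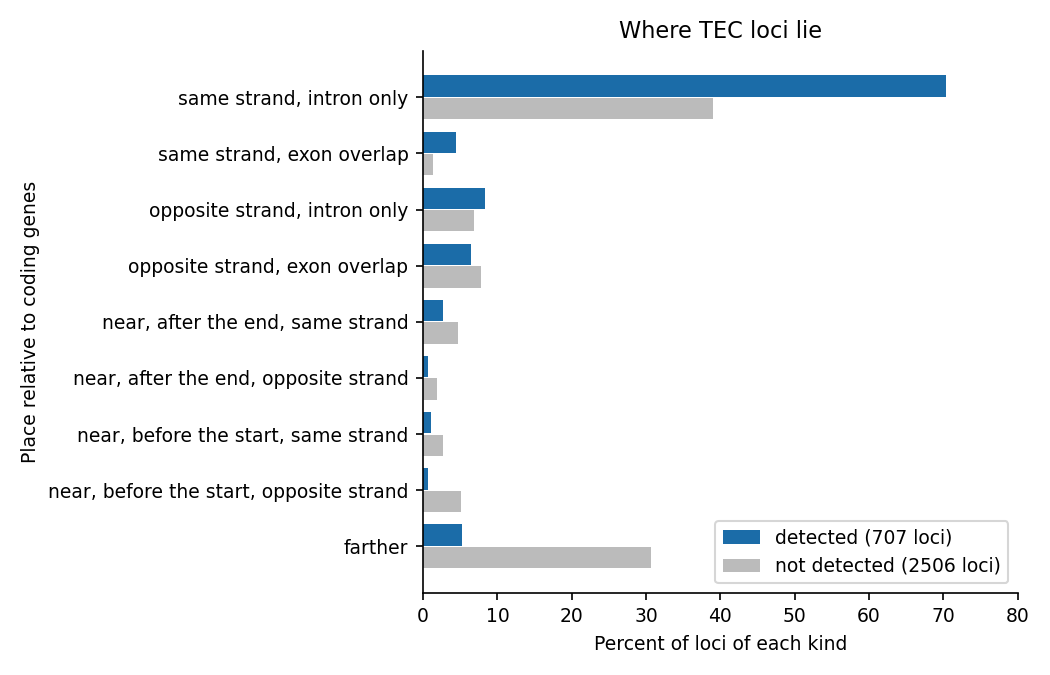
Percent of the detected TEC loci (blue) and of those not detected (grey) in each class of position relative to coding genes, near meaning within 10 kb. The intronic same-strand class holds 70.3% of detected and 39.0% of undetected loci, and the farther class 5.23% and 30.6%.

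Whether a locus was detected went with the level of the gene around it. Of intronic loci on the gene's strand, 1.81% of 717 were detected in genes under 1 TPM, 26.3% of 228 in genes of 1 to 5 TPM, 66.1% of 221 at 5 to 20 TPM, 88.3% of 239 at 20 to 100 TPM and 95.7% of 70 above 100 TPM. Of intronic loci on the opposite strand the shares were 1.61% of 124, 29.6% of 27, 45.0% of 40, 71.9% of 32 and 88.9% of 9. Both series rose with each step in gene level. Since the rule used the loci's TPM, these shares describe which loci it took.

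Genes that held detected intronic loci were long. The 335 such genes with a single assignment had a median length of 94.1 kb and a median level of 20.98 TPM. All 7870 detected coding genes had a median length of 27.1 kb and a median level of 8.13 TPM. The 859 coding genes with an intronic same-strand TEC locus, detected or not, had a median length of 108 kb and a median level of 2.10 TPM. Length was thus a property of genes with TEC loci in general, and level the one that differed for detected loci. The loci themselves had a median length of 2106 bases, from 166 (Gm47089) to 30942 (9330162G02Rik, opposite Ube3a), beside 1886 for undetected loci, and a median GC content of 41.8%, beside 42.4% for undetected TEC loci and 48.7% for coding transcripts. Of the 707, 706 consisted of 1 exon in every transcript.

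An intronic locus was usually below the gene around it. Over 485 loci in introns of 1 coding gene on the same strand (335 genes), the median log2 ratio of locus to gene, with 0.5 TPM added to both, was -1.71 ± 0.06 (SD, n = 3 libraries). The quartiles over loci were -2.74 and -0.44. The locus was below its gene in all 3 libraries for 387 loci (79.8%) and above it in all 3 for 59 (12.2%). The second group depended on the quantification: of 73 loci with a mean ratio above 0, 40 were below their gene with the kallisto-style TPM, while of 412 below their gene 12 were above it there. The detection threshold put a floor under the loci and none under the genes, so low loci in low genes are missing from these ratios. In 59 loci in introns of a gene on the opposite strand the median ratio was -1.65 ± 0.14, and the difference between the strands was not tested.

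**Figure D3:**
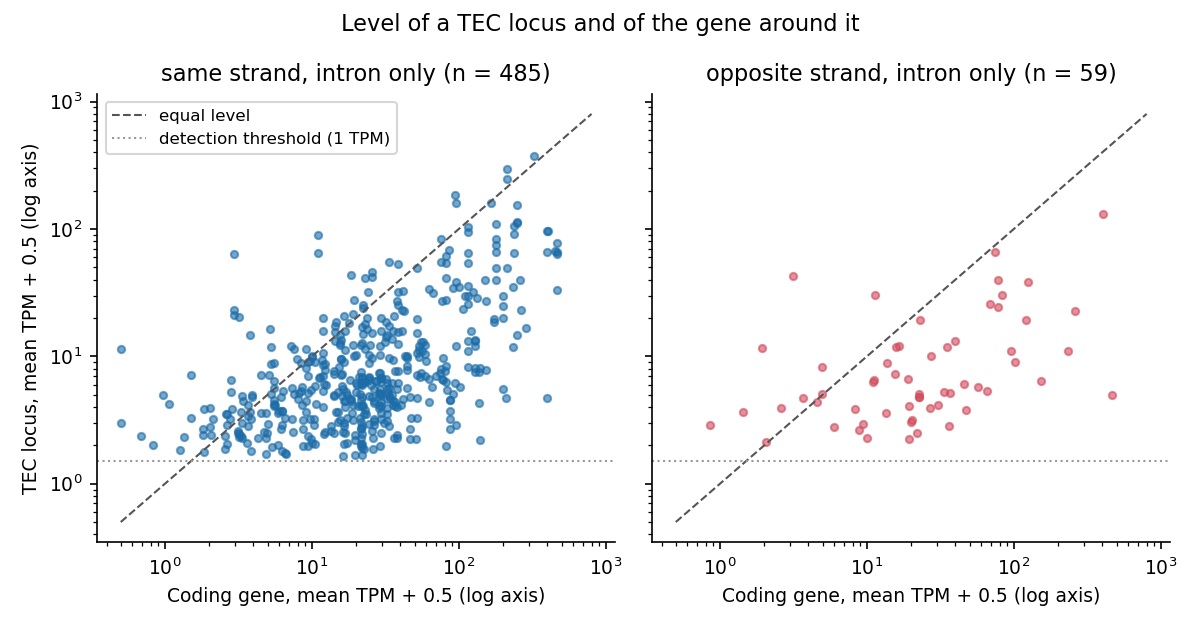
Mean TPM + 0.5 of each detected intronic TEC locus against that of the coding gene around it (log axes), for 485 loci on the gene's strand and 59 on the opposite strand. The dashed line marks equal levels and the dotted line the detection threshold of 1 TPM; most points lie below the dashed line, the median log2 ratio being -1.71 and -1.65.

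The lowest ratio was that of Gm47583 in 2010111I01Rik, which measured 3.04, 5.44 and 4.06 TPM while the gene measured 309, 530 and 362 TPM, a log2 ratio of -6.41 ± 0.09 (SD, n = 3). The same gene held Gm47586 at 96.1 and Gm47585 at 65.5 TPM in other introns. The next lowest were Gm44913 in the neuron navigator gene Nav2 (-6.01 ± 0.38), Gm37975 in Pfkfb3, a regulator of glycolysis (-5.48 ± 0.30), Gm10926 in Asap1 (-5.38 ± 0.21) and Gm37488 in the splicing factor gene Mbnl1 (-5.23 ± 0.57). Their genes measured 81.0 to 400 TPM on average.

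At the other end were loci above the gene around them. In Maml2, a coactivator of Notch signalling measured at 2.61, 1.83 and 2.88 TPM, Gm47087 stood at 59.9, 42.5 and 88.2 TPM, a log2 ratio of 4.40 ± 0.27. Phxr4 and Gm47089 in the same gene had ratios of 2.94 ± 0.29 and 2.79 ± 0.82. Gm47089 was the shortest detected locus and averaged under 50 expected counts, so its ratio is imprecise. Gm43982 and Gm43984 in Etv6, a repressor of the ETS family, measured 88.9 and 64.3 TPM beside 10.5 TPM for the gene, log2 ratios of 3.00 ± 0.26 and 2.55 ± 0.23. The kallisto-style table gave Etv6 58.8 TPM, so the ratios of Gm43982 and Gm43984 were 0.61 and 0.19 there, while those of Gm47087, Phxr4 and Gm47089 were 3.37, 2.51 and 3.05. Gm37110 also ranked among the highest, in Khdrbs2, which was listed at 0 in every library of the gene table, so no fold is given. With the kallisto-style TPM Khdrbs2 was at 13.9 and Gm37110 at 56.9 TPM. The sequence of Gm37110 equals that of another locus, as described below.

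Of the 335 genes, 244 held 1 detected intronic locus on their strand and 31 held at least 3. Loci of 1 gene were more alike than loci at large: the median SD of mean log2 level among loci of the same gene was 0.54 over these 31 genes, and the SD over all 485 loci was 1.45. Apbb2, an adaptor protein of the amyloid precursor protein, and Camk2d, a calcium/calmodulin-dependent kinase, had 7 each, Cers6, a ceramide synthase, had 6, and Dip2c, Med13l, Ncoa2, Tcf12 and Vps13b had 5 each.

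In Camk2d the 7 loci fell steadily with distance from the start of the gene in the gene table. Gm43011, 3.73 kb from the start, measured 81.7, 131 and 96.2 TPM. Gm43010 (29.6 kb) averaged 94.0, Gm43009 (48.2 kb) 64.6, Gm43006 (61.4 kb) 53.7, Gm43005 (66.1 kb) 25.04 and Gm42515 (141 kb) 10.5 TPM. Gm42514, at 150 kb, measured 6.45, 9.63 and 7.20 TPM. The order was the same in all 3 libraries of the gene table, beside a mean of 114 TPM for Camk2d. With the kallisto-style TPM the fall was not steady. The means from start to end were 96.4, 98.1, 65.3, 49.0, 55.6, 14.0 and 29.0 TPM there. In Dock10, A630081D01Rik (9.47 kb) and Gm38062 (27.9 kb) were the highest of all loci after Gm38357, while Gm37645, at 89.0 kb, measured 46.1, 53.9 and 47.7 TPM. In Cers6 the 6 loci ran from Gm37159 (108 ± 14 TPM at 29.9 kb) to Gm38377 (38.9 ± 8.8 TPM at 157 kb). Gm37666, at 152 kb, rose above its neighbour Gm37747 in replicates 1 and 3 (68.5 and 80.6 TPM beside 47.1 and 41.8) and not in replicate 2 (47.6 beside 56.4).

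Other genes showed no such order. The 7 loci of Apbb2 lay between 2.44 and 9.67 TPM along 320 kb, with Gm43794, at 174 kb, second highest. In Itpkb, Gm37033 at 27.2 kb (111 TPM), Gm37390 at 42.2 kb (152 TPM) and Gm36933 at 46.0 kb (114 TPM) were highest in the middle in every library. In Picalm, a clathrin adaptor gene at 466 TPM, the 4 loci measured 65.6, 62.9, 77.4 and 32.4 TPM from start to end. Over the 65 genes with at least 3 intronic same-strand TEC loci that had a count, the locus nearer the start was the higher one in 52.7% ± 3.0 of 662 pairs (n = 3 libraries: 51.2, 50.8 and 56.2%). In 36 of the 65 genes this held for more pairs than not, and in 2 for as many pairs as not. Pooled pairs in the gene table thus had the locus nearer the start higher about as often as lower. With the kallisto-style TPM the share was 57.2%. Genes with a steady fall like that of Camk2d were not counted.

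**Figure D4:**
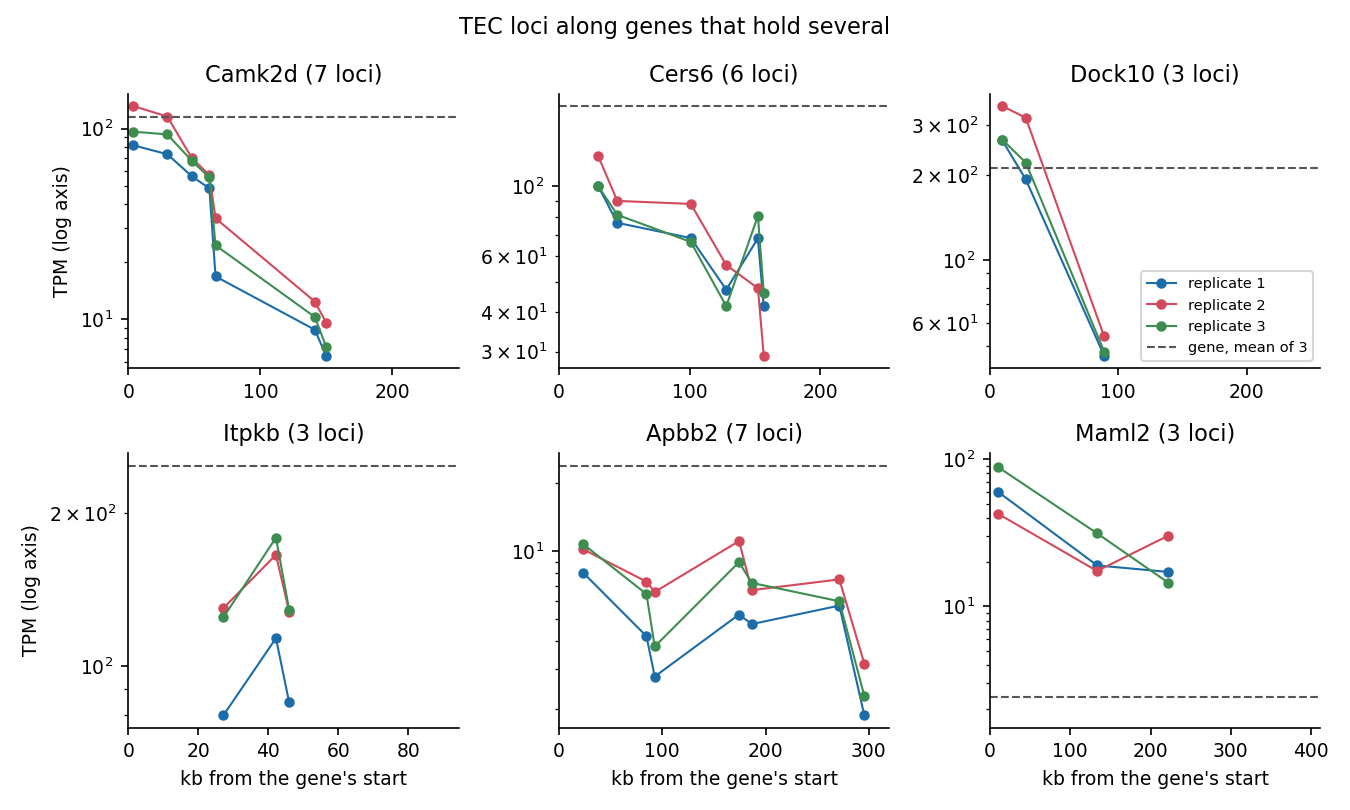
TPM (log axes, scaled per panel) of the detected intronic TEC loci against their distance from the start of the gene in kb, for 6 genes, with 1 line per library and a dashed line for the gene's mean. In the gene table, which is plotted, Camk2d falls from 103 to 7.76 TPM, Itpkb is highest in the middle at 152 TPM, and the Maml2 loci lie above the gene's 2.44 TPM.

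Replicate 1 was the lowest library for 562 of the 707 loci and replicate 2 the highest for 482. The median deviation from a locus's mean over libraries was -0.24, 0.21 and 0.04 in replicates 1, 2 and 3 on the log2 scale. Detected coding genes moved in the same order, at -0.21, 0.16 and 0.05. Starting RNA also differed, being most in replicate 1 and least in replicate 2, and its part in this pattern cannot be told apart from other differences between single libraries. The median coefficient of variation was 22.8% for the loci and 20.1% for detected coding genes. edgeR gave a median biological coefficient of variation of 0.176 (quartiles 0.157 and 0.196) for the 696 loci that passed its filter, and 0.169 for 6476 coding genes of like count. Without replicate 2 it was 0.131.

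Loci and the genes around them deviated together. For 415 intronic same-strand pairs (290 genes) with at least 50 counts in both, Pearson's r across pairs between the deviation of the locus and that of the gene was 0.38, 0.46 and 0.30 in replicates 1, 2 and 3, and Spearman's rho 0.34, 0.43 and 0.32. For 44 intronic pairs on opposite strands r was 0.39, 0.66 and 0.36. For 38 loci that overlap an exon on the opposite strand, where reads may be divided between both, r was 0.37, 0.62 and 0.75. For 39 loci outside coding genes and their nearest coding gene r was 0.13, 0.18 and 0.15, and some of these 39 lie in noncoding genes. These are correlations across loci, which share genes, libraries and depth, and they are given as a description.

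**Figure D5:**
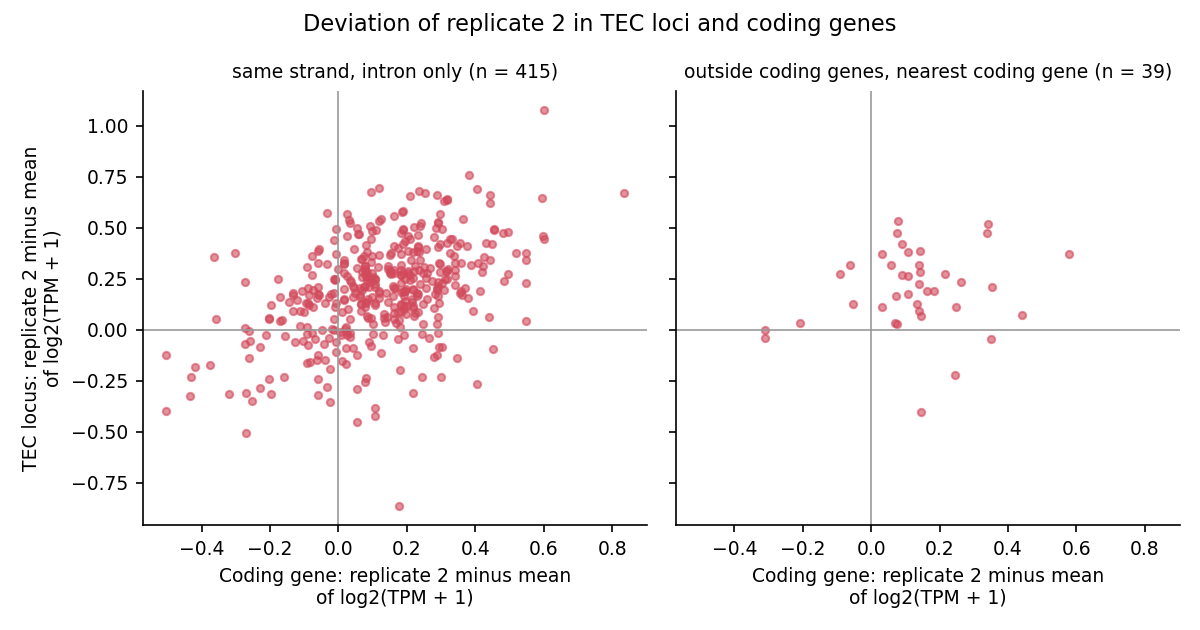
Deviation of replicate 2 from the mean over libraries, in log2(TPM + 1), for TEC loci against coding genes: 415 intronic same-strand loci with the gene around them (left) and 39 loci outside coding genes with the nearest coding gene (right). Pearson's r is 0.46 and 0.18, and most points lie above 0 on both axes.

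The loci that varied most, among those with at least 100 counts, include pairs that moved with their gene. Gm37642 in St8sia4, a polysialyltransferase gene, measured 5.48, 14.4 and 8.53 TPM and its gene 10.6, 27.0 and 18.6 TPM. Gm47586 measured 60.9, 143 and 84.2 TPM and 2010111I01Rik 309, 530 and 362 TPM. In both, the locus and the gene had the same order of libraries. Gm37488 in Mbnl1 varied most, at 1.34, 7.60 and 2.37 TPM, more than the gene at 97.8, 199 and 115 TPM. Gm37560, 84 bases from the start of Bcl2a1d on the opposite strand, went another way, at 21.4, 27.2 and 10.7 TPM, with replicate 3 lowest. Bcl2a1d belongs to a family of near-identical copies, so reads in that region are uncertain.

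The lists of early response genes held few TEC loci, detected or not. TEC loci are uncommon at coding genes at large: 859 of 22028 held one in an intron on their strand. That share leaves out loci on the opposite strand or nearby, which the lists count. The small counts are therefore not read as a trait of these genes. Among 32 immediate early genes there were 2 TEC loci and neither was detected, and among 31 cytokine and chemokine genes there was no TEC locus, although 27 genes of each list were detected. Of the NF-kB genes, only Nfkb1, which encodes the p105 precursor of the p50 subunit, had a TEC locus, Gm43430. It measured 79.3, 107 and 102 TPM and Nfkb1 345, 393 and 475 TPM. Replicate 1 was lowest in both.

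Interferon-related genes had 7 TEC loci, of which 4 were detected. Gm49730 overlapped an exon of Parp14, an ADP-ribosyltransferase gene, and measured 62.1, 55.2 and 75.6 TPM beside 462, 349 and 541 TPM for Parp14, with replicate 2 lowest in both. 9430034N14Rik in Tor1aip1 measured 22.2 ± 0.6 TPM (SD, n = 3). Gm43068, opposite an intron of the antiviral oligoadenylate synthetase gene Oas2, measured 4.82 ± 1.17 TPM, and Gm42963, before the start of Parp12, 2.31 ± 0.65 TPM.

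All 6 TEC loci at macrophage lineage genes were detected: the 3 in Dock10, A130071D04Rik in Ptprc, and Gm47657 and Gm47665 in Elmo1. Ptprc encodes the leukocyte surface phosphatase CD45, and its locus measured 62.3, 59.6 and 78.0 TPM beside 407, 440 and 515 TPM for the gene. Elmo1, a partner of Dock proteins in phagocytosis and migration, averaged 77.1 TPM and its loci 9.21 and 6.04 TPM. Of 6 TEC loci at genes of splicing and chromatin-retained RNA, 5 were detected. The highest was Gm43980, opposite an intron of the splicing regulator gene Tra2a, at 35.0, 40.7 and 41.4 TPM, followed by Gm43362 in Srsf11 at 16.0 ± 2.9 TPM and 6430511E19Rik opposite an exon of Pcf11 at 9.30 ± 3.34 TPM. The lists' counts are small. The share detected was 22.0% for all TEC loci, but it rose with the level of the gene around. For intronic loci on the gene's strand it was 88.3% in genes of 20 to 100 TPM and 95.7% above 100 TPM. The counts are therefore not read as a trait of the lists.

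Of the 74 detected loci outside coding genes, 32 overlapped a noncoding gene, 25 of them on its strand. 5330406M23Rik, in an intron of the long noncoding RNA gene Lncpint, measured 46.3, 70.3 and 59.8 TPM, and Lncpint 388, 771 and 485 TPM. The order of libraries was the same in both. Gm43197 in Gm20559 measured 25.6, 34.6 and 36.5 TPM. Gm37420 (26.7, 37.3 and 22.7 TPM) and Gm37472 (26.7, 32.0 and 20.7 TPM) lay in Dleu2, the noncoding host gene of miR-15a and miR-16-1, which measured 80.7, 124 and 90.5 TPM. Gm37352, at 14.7, 28.1 and 19.2 TPM, lay within 10 kb after the end of a coding gene on the opposite strand.

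Mir99ahg, the noncoding host gene of a microRNA cluster that holds Mir125b-2, had 12 detected loci. It measured 61.3, 71.6 and 62.3 TPM. The highest of its loci were 9430092D12Rik (12.3 ± 0.9 TPM), Gm37606 (12.1 ± 0.6 TPM) and Gm37311 (11.4 ± 2.2 TPM), and C130023A14Rik, shown above next to mmu-miR-125b-2-3p, is another of the 12.

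A few loci cannot be told apart from a copy of themselves. In 8 loci the sequence equals that of another detected locus. Gm20236 in Slc25a37, the gene of the mitochondrial iron importer mitoferrin 1 (chr14:69277601-69282140), and Gm37094 in Gm16867 (chr14:69495851-69500390) were both listed at 151, 126 and 204 TPM, and the reads were divided between them. Gm37847 and Gm31748 at the same pair of genes (27.2 TPM each) and Gm38378 and Gm37513 (2.40 TPM each) are 2 more such pairs. The fourth is Gm37110 in Khdrbs2, at 13.0, 5.30 and 14.2 TPM, and Gm44183 opposite an intron of Nek6, at 4.34, 10.6 and 8.22 TPM. Their sums, 17.4, 15.9 and 22.4 TPM, varied less than either relative to the mean. Nek6 measured 4.47 TPM in the gene table, where Khdrbs2 was listed at 0.

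Which strand the RNA came from is uncertain, since the sources used here do not say whether the libraries kept strand or how the counting treated it. This holds for the 105 loci opposite a coding gene and also for those called same-strand. Same and opposite strand are those of the annotation throughout. The program's posterior standard deviation of the count, which is above 0 where reads could belong to more than 1 gene, was above 0 in 69.6% of the 46 loci that overlap an exon on the opposite strand and in 64.5% of the 31 that overlap one on the same strand. It was above 0 in 3.39% of the loci in introns on the opposite strand and in 3.22% of those on the same strand. Reads that could belong to more than 1 gene were thus found at most loci over exons, on either strand, and at few loci in introns. The other gene is not named in the tables.

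The other quantification gave the loci higher levels. The median log2 ratio of the kallisto-style TPM to the gene table's TPM was 0.22 (quartiles 0.02 and 0.70), with 122 loci over 2-fold higher, 40 over 4-fold higher and none over 2-fold lower. The largest gap was that of Gm47164 in Lrriq1, at 2.50 TPM in the gene table and 669 in the other. Gm47457 (1.64 and 69.4), Gm37503 (3.86 and 69.0), Gm43633 (2.03 and 40.1) and Gm36976 (1.32 and 27.4) followed. The highest loci differed little, with Gm38357 at 370 and 366 TPM. A total of 1528 TEC loci passed the threshold with the kallisto-style TPM, among them 705 of the 707. The 823 that only it detected had a median of 0.0133 TPM in the gene table and 3.98 TPM in the other.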

How the data were processed

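Total RNA-seq of the chromatin fraction was measured in 3 libraries of 1 group. Coordinates are mm10 per the labels, and each library came with a note naming GENCODE M21. Aligner, programs, versions and strand setting: not given in the sources used here. The gene tables hold, per the file headers, expected counts and TPM with column names in the manner of RSEM, and a posterior standard deviation of the count, a score in reads. Estimated counts and TPM of a second transcript table, in the manner of kallisto, were deposited by the authors too and were summed per gene.

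Gene types came from the second table. Positions, introns (bases outside every annotated exon of the gene) and sequences came from M21 and RefSeq. edgeR (estimateDisp, intercept only, TMM, filterByExpr) ran on expected counts rounded to whole numbers. On simulated counts it recovered the spread they were made with, and the correlation was also tested on simulated data. Library pairs differed by 15.3 to 36.9 chi-square per degree of freedom, so none was a copy. Intervals cover counting error only.

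The loci and lists were chosen with earlier results of these data known. The text names a selection of the highest, most variable and extreme-ratio loci, those at the threshold, the longest, the highest of each list and outside coding genes, those of the genes with most loci, and those that differ most between quantifiers. Versions were edgeR 4.0.16 in R 4.3.3 and scipy 1.17.1, pandas 2.3.3 and numpy 2.4.6 in Python 3.11.15. The planned count of A in the 20 genome bases after each end needs a genome and was replaced by the last 20 bases of the locus.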

Additional observations from a re-analysis of the deposited data

How the results depend on the processing

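The choice of quantifier moved most values. By kallisto-style TPM the number of detected loci was 1528, the median level was 3.15 on the log2 scale, TEC loci took 3.92% of counts (2.83% in the gene tables), the median log2 ratio to the gene around was -2.01, the locus nearer the start was higher in 57.2% of pairs, and of the loci so detected 59.4% lay in a coding gene on the same strand and 84.1% in or near one. Counting genes of any type as hosts gave 79.5% and 99.3%. TPM rescaled over genes of at least 200 bases of effective length raised the median level to 4.08, and a pseudocount of 0.1 moved the ratio to -1.81. Searching the last 30 or 100 bases found a signal word in 19.7% or 29.0% of ends, and requiring 10 or 15 A found 19.7% or 1.98% of ends A-rich. Thresholds of 0.5 and 2 TPM kept 849 and 545 loci, and at least 10 counts 925. Leaving out 1 library at a time gave 713 to 762 loci, median levels of 2.53 to 2.78 and median ratios of -1.74 to -1.68, and moved the edgeR coefficient to between 0.131 (without replicate 2) and 0.208. The sign of the ratio to the gene around turned with the kallisto-style TPM in 52 of 485 pairs; the medians kept their sign. Of 90 alternatives for single loci, 79 moved by no more than the spread between libraries. The 79 include every alternative that left out 1 library. These could not have moved by more, since dropping 1 of 3 values shifts a mean by less than their SD. The 11 that moved by more used the other quantifier or pseudocount. Of these, 10 were ratios to the gene around and 1 was the level of Gm42793, and the cause was not tested. With 100 of 707 loci under 50 counts, single low loci are imprecise. No paired analysis was possible because there is 1 group.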
